A study of Nicotiana tabacum with 9 samples.

Results

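Of 76785 gene and transcript identifiers measured in tobacco pollen, 21 were listed at or near 0 in every *ATG5*-silenced library while they were measured in every *ATG2*-silenced and every WT library. They were chosen by their FPKM, as the identifiers with at most 0.1 FPKM in each of the 3 *ATG5*-silenced libraries and at least 0.7 FPKM in each of the 3 *ATG2*-silenced and 3 WT libraries. FPKM gives the sequenced fragments of a transcript relative to its length and to the mapped fragments of the library, so levels of different transcripts can be set side by side. The 200 unannotated transcripts of highest mean WT FPKM were left out of the choice, which removed 2 identifiers that met the thresholds. Because measured values chose the 21 transcripts, their low values in *ATG5*-silenced pollen are given as a description and carry no test. The 21 were made up of 15 unannotated transcripts and 6 annotated genes, and 20 of them were listed at exactly 0 in all 3 *ATG5*-silenced libraries.

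The pollen, labelled as bicellular, came from *ATG5* RNAi plants, from *ATG2* RNAi plants and from WT plants of *Nicotiana tabacum* cv. Petite Havana SR1, all raised in a glasshouse, with 3 libraries per genotype. The study compared the genotypes to learn how silencing of either autophagy gene affects the pollen transcriptome. It describes the 3 libraries of a genotype as independent replicates. The promoter of the RNAi constructs, the number of transgenic lines and the number of plants behind a library are not given in the sources used here, so the spread between libraries may not cover differences between lines.

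Autophagy delivers parts of the cytoplasm to the vacuole for breakdown, inside vesicles bounded by a double membrane. ATG5 is joined to ATG12, and the conjugate helps to attach ATG8 to the lipid of the growing membrane, whereas ATG2 carries lipids to that membrane. Pollen grains store many transcripts that are used when the pollen tube emerges. RNAi lowers a target through small RNAs that guide the cleavage of matching transcripts. An unannotated transcript is one that the authors' tables carry under a running number outside the reference annotation, and it is named here by that number. How these transcripts were assembled is not given in the sources used here.

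The FPKM of a library summed to 904845 to 916280 in *ATG5*-silenced, 971813 to 1030772 in *ATG2*-silenced and 944648 to 963914 in WT pollen. No counts stand behind the values here, so the depth at which a transcript would be listed at 0 is unknown, and 0 says only what the table lists. The targeted gene *ATG5* (GeneID:107810645) stood at 0.18, 0.23 and 0.10 FPKM in *ATG5*-silenced pollen, against 1.04, 1.5 and 1.6 FPKM in WT, which limma put at -1.38 on the log2 scale (standard error 0.17, adjusted p = 1.9e-04). Hence the silenced gene itself was not listed at 0 and is not among the 21. The labelled tissue was borne out by its markers, as 5 pollen genes (*ntp101*, *ntp201*, *ntp805*, *PRO1* and *PPME1*) summed to 40155.6 to 44153.6 FPKM in *ATG5*-silenced, 27184.7 to 28572.7 in *ATG2*-silenced and 24997.8 to 26854.0 in WT pollen. The sum was led by the *ntp* genes, while the profilin gene *PRO1* was lower in each *ATG5*-silenced library as deposited, averaging 299 ± 25.4 FPKM in *ATG5*-silenced, 885 ± 44.8 in *ATG2*-silenced and 747 ± 50.1 in WT pollen (SD, n = 3 libraries each). The pectin methylesterase gene *PPME1* was likewise lower in each, averaging 2295 ± 215 FPKM in *ATG5*-silenced, 4717 ± 237 in *ATG2*-silenced and 4337 ± 431 in WT pollen. A further pollen gene that was sought, and all anther wall genes sought, had no match by symbol, so anther wall RNA could not be checked. A list of 11 green tissue genes, taken by the start of their symbols, was also summed. The sum was 1.24 to 2.05 FPKM in *ATG5*-silenced, 2.7 to 3.0 in *ATG2*-silenced and 3.3 to 6.14 in WT pollen. Of the 11, 1 was at 0 in every library. The antenna protein gene *CAB21* was at no more than 0.11 FPKM in *ATG5*-silenced pollen and averaged 1.33 FPKM in WT. *PSBR* averaged 0.197 FPKM in *ATG5*-silenced and 0.91 FPKM in WT pollen. The fall was not shared by the measured *PsbO* gene, with 0.14 FPKM in *ATG5*-silenced and 0.107 FPKM in WT pollen. Nor was it shared by *PSA1*, which averaged 1.25 FPKM in *ATG5*-silenced and 1.30 FPKM in WT pollen. *PSA1* entered the list by the start of its symbol alone, and whether it is a green tissue gene was not checked. At 1.21, 1.53 and 1.0 FPKM, it made up most of the sum in the *ATG5*-silenced libraries. The other genes were at 0 in *ATG5*-silenced pollen and at or below 0.25 FPKM elsewhere. A list of 4 root genes, with *PMT* at 0 in each *ATG2*-silenced and WT library, stayed at or below 0.5 FPKM in sum in every library. The green tissue sum was lowest in *ATG5*-silenced pollen, and its part in the results on the 21 transcripts was not tested. In bulk pollen RNA, fewer cells holding a transcript and less of it per cell cannot be told apart.

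The most abundant of the 21 transcripts was the annotated gene GeneID:107831913. It was listed at 0, 0 and 0 FPKM in *ATG5*-silenced pollen, at 1847.5, 1978.4 and 2075.3 FPKM in *ATG2*-silenced pollen and at 1816.37, 726.89 and 594.8 FPKM in WT. By mean WT FPKM it ranked 173 among all identifiers, and it alone took 0.190% to 0.203% of the summed FPKM of the *ATG2*-silenced libraries and 0.188%, 0.0769% and 0.0621% of that of WT replicates 1, 2 and 3. Thus a transcript among the most abundant of pollen was listed at 0 in every *ATG5*-silenced library. WT replicate 1 was close to the *ATG2*-silenced libraries, while WT replicates 2 and 3 lay well below it. The identifier is not in the reference table used here, so neither a name nor a role can be given.

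Only 2 other members had a mean WT level of 20 FPKM or more. GeneID:107777622, also without a name, was listed at 0 in the 3 *ATG5*-silenced libraries, at 24.9, 35.2 and 31.8 FPKM in *ATG2*-silenced pollen and at 40.03, 32.34 and 35.3 FPKM in WT. Its values were the steadiest of the 21 in WT and overlapped between *ATG2*-silenced and WT pollen. Unannotated transcript 3826 was listed at 0 in *ATG5*-silenced pollen, at 32.5, 31.0 and 62.5 FPKM in *ATG2*-silenced pollen and at 25.96, 56.70 and 38.1 FPKM in WT. Its highest value was 2.02 times the lowest in *ATG2*-silenced pollen and 2.18 times in WT, and the genotypes overlapped.

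**Figure D1:**
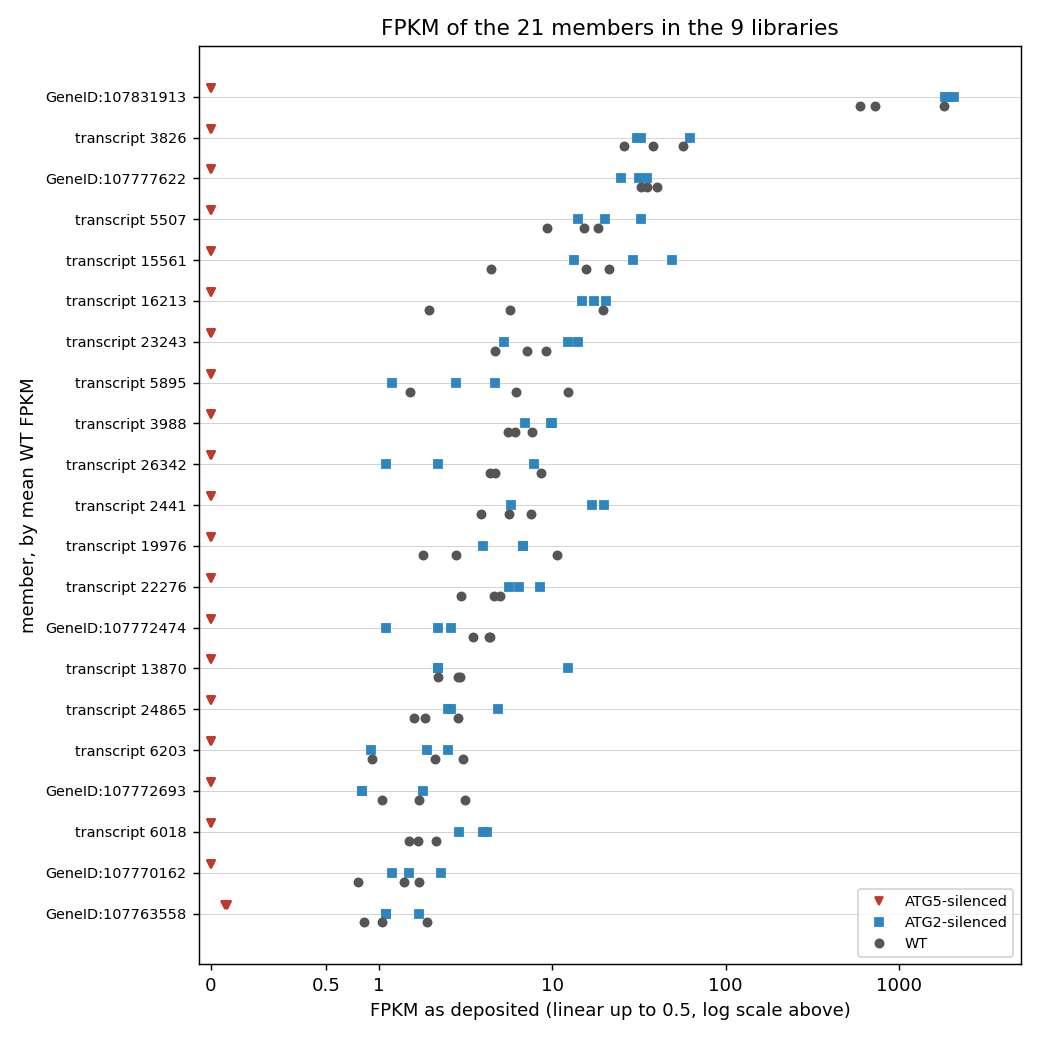
FPKM as deposited (linear up to 0.5 and logarithmic above) of the 21 transcripts in 9 libraries, 1 row per transcript in the order of mean WT FPKM, with red triangles for *ATG5*-silenced, blue squares for *ATG2*-silenced and grey circles for WT libraries. All red triangles lie at 0 except those of GeneID:107763558 at 0.06 to 0.07 FPKM, and the blue squares and grey circles of 17 of the 21 transcripts overlap.

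A further 9 members, all unannotated, had a mean WT level between 5 and 20 FPKM. Each was listed at 0 in all 3 *ATG5*-silenced libraries. Transcript 5507 stood at 20.1, 32.5 and 14.1 FPKM in *ATG2*-silenced pollen and at 9.35, 15.18 and 18.3 FPKM in WT. Transcript 15561 stood at 13.3, 29.3 and 49.3 FPKM in *ATG2*-silenced pollen and at 4.46, 21.36 and 15.6 FPKM in WT. Both had a higher mean in *ATG2*-silenced pollen, but their libraries overlapped. Transcript 16213 varied most in WT, where it stood at 1.94, 5.73 and 19.7 FPKM, against 17.4, 20.5 and 14.9 FPKM in *ATG2*-silenced pollen. WT replicate 3 alone reached the level of the *ATG2*-silenced libraries. Transcript 23243 stood at 5.3, 12.3 and 14.0 FPKM in *ATG2*-silenced pollen and at 4.70, 9.19 and 7.2 FPKM in WT. Transcript 2441 stood at 5.8, 20 and 16.9 FPKM in *ATG2*-silenced pollen and at 3.90, 7.51 and 5.6 FPKM in WT. In both of these transcripts *ATG2*-silenced replicate 1 fell among the WT libraries and the other *ATG2*-silenced replicates lay above them.

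Transcript 3988 was the steadiest of these 9 in WT, with 7.0, 9.9 and 10 FPKM in *ATG2*-silenced pollen and 5.53, 6.11 and 7.6 FPKM in WT. By contrast, transcript 5895 stood at 1.2, 4.7 and 2.8 FPKM in *ATG2*-silenced pollen and at 12.31, 1.52 and 6.2 FPKM in WT, where replicate 1 was 8.10 times replicate 2. Transcript 26342 stood at 2.2, 1.1 and 7.9 FPKM in *ATG2*-silenced pollen and at 4.37, 8.67 and 4.7 FPKM in WT. These last 2 were the only unannotated members above 5 FPKM with a lower mean in *ATG2*-silenced pollen than in WT, and their libraries overlapped. Transcript 19976 stood at 4.0, 6.8 and 6.8 FPKM in *ATG2*-silenced pollen and at 1.79, 10.60 and 2.8 FPKM in WT, so the WT libraries lay on both sides of the *ATG2*-silenced ones.

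The remaining 9 members were weaker, with 2 at a mean WT level of 3 to 5 FPKM and 7 below 3 FPKM. Transcript 22276 was higher in each *ATG2*-silenced library (6.4, 5.6 and 8.5 FPKM) than in each WT library (4.62, 2.99 and 5.0 FPKM). Transcript 6018 was likewise higher in each *ATG2*-silenced library, with 4.2, 2.9 and 4.0 FPKM against 1.68, 2.15 and 1.5 FPKM in WT. GeneID:107772474 went the other way, with 1.1, 2.2 and 2.6 FPKM in *ATG2*-silenced pollen and 4.37, 4.34 and 3.5 FPKM in WT. It was the only member whose *ATG2*-silenced libraries all lay below all WT libraries. Transcript 13870 stood at 2.2, 2.2 and 12.3 FPKM in *ATG2*-silenced pollen and at 2.96, 2.87 and 2.2 FPKM in WT, the third *ATG2*-silenced library standing far above all others. The values of transcripts 24865 and 6203 ran between 0.9 and 4.9 FPKM in these 6 libraries, and those of GeneID:107772693 between 0.8 and 3.14 FPKM.

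The 3 members nearest the threshold of 0.7 FPKM were all annotated genes. GeneID:107770162 stood at 0, 0 and 0 FPKM in *ATG5*-silenced pollen, 1.2, 1.5 and 2.3 FPKM in *ATG2*-silenced pollen and 1.70, 0.76 and 1.4 FPKM in WT. GeneID:107763558 was the only member with any value above 0 in *ATG5*-silenced pollen, at 0.06, 0.07 and 0.07 FPKM, against 1.1, 1.1 and 1.7 FPKM in *ATG2*-silenced pollen and 0.82, 1.05 and 1.9 FPKM in WT. The third was GeneID:107772693, whose lowest value of 0.8 FPKM was in *ATG2*-silenced pollen. Just outside stood GeneID:107761591, at 0 in *ATG5*-silenced pollen and with a lowest value of 0.66 FPKM elsewhere, and GeneID:107765134 and GeneID:107806573, each at 0 in *ATG5*-silenced pollen and with a lowest value of 0.6 FPKM. At the threshold of 0.1 FPKM, GeneID:107785307 was kept out by 0.12 FPKM in 1 *ATG5*-silenced library and 0 in the others, and transcripts 15180 and 27645 by a highest value of 0.13 FPKM. Transcript 15180 had 0.12 to 0.13 FPKM in all 3 *ATG5*-silenced libraries, whereas transcript 27645 was at 0 in the other 2.

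The identifiers that met both thresholds but were left out for their abundance were transcripts 19398 and 6147. Transcript 19398 stood at 0 in the 3 *ATG5*-silenced libraries, at 96.9, 47.7 and 398.3 FPKM in *ATG2*-silenced pollen and at 341.60, 109.98 and 38.8 FPKM in WT. Transcript 6147 stood at 0 in the 3 *ATG5*-silenced libraries, at 115, 75.4 and 170.3 FPKM in *ATG2*-silenced pollen and at 658.17, 90.51 and 54.6 FPKM in WT. In both, replicates of 1 genotype differed several-fold.

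To show how values in *ATG5*-silenced pollen ran up to the threshold, all 19234 identifiers with at least 0.7 FPKM in each *ATG2*-silenced and WT library were sorted by their highest *ATG5*-silenced value, without the 200 abundant unannotated transcripts. A highest value of 0 was found for 20 identifiers, a value above 0 and up to 0.1 FPKM for 1, a value above 0.1 and up to 0.2 FPKM for 20, and one above 0.2 and up to 0.3 FPKM for 38. Unannotated transcripts were 15 of the 20 at 0, but 7 of the 20 in the range above 0.1 and up to 0.2 FPKM. Thus the unannotated members were all listed at exactly 0, with none in the range above 0 and up to 0.1 FPKM. Among the 21 members 71.4% were unannotated, beside 18.6% of the 19234 identifiers and 10.01% of all identifiers.

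**Figure D2:**
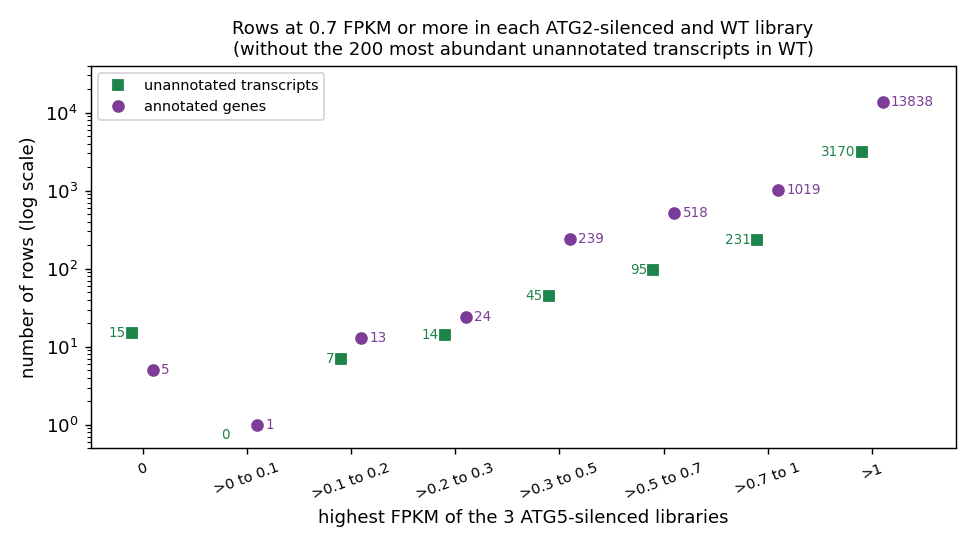
Number of identifiers (log scale) by their highest FPKM in the 3 *ATG5*-silenced libraries, among the 19234 with at least 0.7 FPKM in each *ATG2*-silenced and WT library, with green squares for unannotated transcripts and purple circles for annotated genes. At 0 there are 15 unannotated transcripts and 5 annotated genes, and above 1 FPKM there are 3170 and 13838.

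The same thresholds with the genotypes exchanged selected fewer identifiers. With *ATG2*-silenced pollen as the low genotype, 4 identifiers were at most 0.1 FPKM there and at least 0.7 FPKM in the other 6 libraries, 2 of them unannotated, and with WT as the low genotype there were 8, all unannotated. In the reverse pattern, 139 identifiers were at least 0.7 FPKM in each *ATG5*-silenced library and at most 0.1 FPKM in all others, of which 133 were unannotated, while 11 were so in *ATG2*-silenced pollen and 3 in WT. These counts are descriptions, and their differences were not tested. Single libraries were also low on their own, since 54, 16 and 14 identifiers were at most 0.1 FPKM in *ATG5*-silenced replicate 1, 2 or 3 alone and at least 0.7 FPKM in the 8 other libraries. This number was 9, 9 and 41 for the *ATG2*-silenced replicates and 22, 30 and 10 for the WT replicates. The single-library counts include the 200 abundant unannotated transcripts.

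Without a condition on *ATG2*-silenced pollen, and with the 200 abundant unannotated transcripts included, the listing at 0 reached up to highly abundant transcripts. Of 17861 identifiers with at least 1 FPKM in each WT library, 39 were listed at 0 in all 3 *ATG5*-silenced libraries and 8 in all 3 *ATG2*-silenced libraries. Of 1234 identifiers with at least 100 FPKM in each WT library, 2 were at 0 in all *ATG5*-silenced libraries and 0 in all *ATG2*-silenced libraries. Of the same 1234, 1 had *ATG5*-silenced values above 0 and under 1% of WT, and 6 had values above 0 and under 10%.

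Members varied widely between replicates of the genotypes in which they were measured. The coefficient of variation (CV), the SD of 3 libraries as a percentage of their mean, had a median over the 21 members of 40.7% in *ATG2*-silenced and 37.3% in WT pollen. Over the 19234 identifiers these medians were 11.1% and 11.9%, and over the 3577 unannotated transcripts among them 18.3% and 19.5%. In *ATG2*-silenced pollen 20 of the 21 members, and in WT also 20 of the 21, had a CV above the median of the 19234 identifiers. The exceptions were GeneID:107831913 in *ATG2*-silenced pollen, with a CV of 5.81%, and GeneID:107777622 in WT, with 10.8%.

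The highest replicate was more than 2 times the lowest in 11 of 21 members in *ATG2*-silenced pollen, beside 5.28% of the 19234 identifiers, and in 10 of 21 in WT, beside 7.07%. Among unannotated members this held for 9 of 15 in *ATG2*-silenced and 6 of 15 in WT pollen, beside 16.4% and 19.3% of the 3577 unannotated transcripts. Among annotated members it held for 2 of 6 and 4 of 6, beside 2.75% and 4.27% of the 15657 annotated genes. The widest ranges were 7.18 times in *ATG2*-silenced pollen, for transcript 26342, and 10.2 times in WT, for transcript 16213. The annotated members had a median CV of 30.4% in *ATG2*-silenced and 41.3% in WT pollen, and the unannotated members of 42.3% and 32.0%. Leaving ties out, replicate 1 of *ATG2*-silenced pollen was the lowest in 11 of 21 members, beside 41.7% of the 19234 identifiers, and replicate 3 the highest in 12, beside 40.6%. In WT, replicates 1, 2 and 3 were the highest in 8, 8 and 5 members, beside 24.3%, 28.2% and 46.7%. The members were thus not all low or high in the same WT library.

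**Figure D3:**
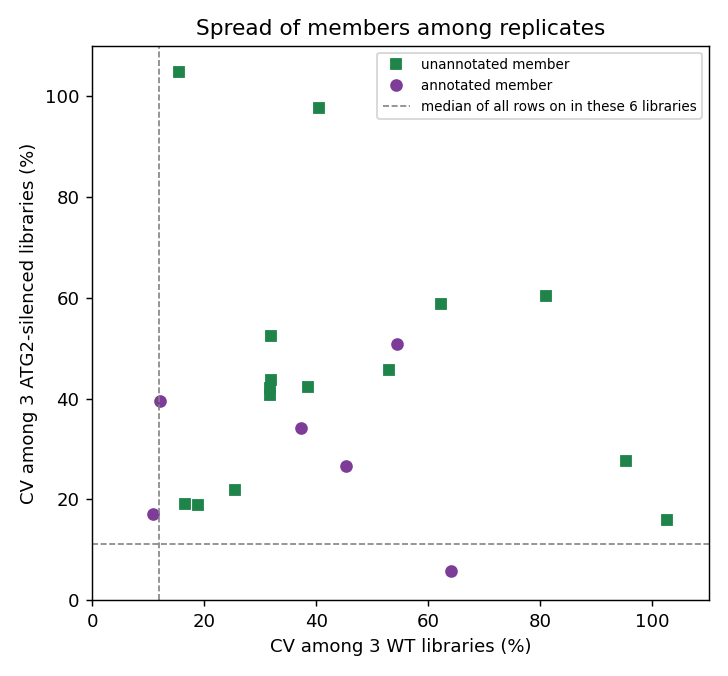
Coefficient of variation among the 3 *ATG2*-silenced libraries against that among the 3 WT libraries, in percent, for each of the 21 members, with green squares for unannotated and purple circles for annotated members. The dashed lines mark the medians over the 19234 identifiers, 11.1% and 11.9%, and 20 of the 21 members lie beyond each line.

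The members' levels in *ATG2*-silenced pollen against WT are the comparison in which the choice asked only for values of at least 0.7 FPKM in both genotypes. No member was called in this comparison. In limma, fitted to log2 values of scaled FPKM plus 0.5 over 27836 identifiers, 0 of 21 members were called higher, beside 0.481% of all identifiers tested, and 0 of 21 were called lower, beside 0.158%. To be called, an identifier had to change by more than 2-fold in either direction, with an adjusted p under 0.05. At an unadjusted p under 0.05 limma gave 4 members as higher and 2 as lower, beside 9.60% and 8.23% of all identifiers tested. All 21 members passed the filter of at least 0.5 FPKM in at least 3 libraries, as the choice itself ensured. The choice also removed any transcript that was near 0 in *ATG2*-silenced pollen, so a deep fall there could not be found among the members.

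*ATG2*-silenced libraries lay wholly above WT libraries in 3 members, transcripts 22276 and 6018 and GeneID:107831913, beside 21.6% of all identifiers tested. They lay wholly below in 1 member, GeneID:107772474, beside 5.29%. The median log2 change of the 21 members was 0.37, from -1.04 to 1.29, beside a median of 0.03 over all identifiers tested. The members' median depended on single libraries, being 0.13 without *ATG2*-silenced replicate 3, 0.22 without *ATG2*-silenced replicate 2 and 0.205 without WT replicate 1. With all libraries it was 0.41 for the 15 unannotated members and -0.19 for the 6 annotated ones. Of the 21 members 61.9% had a log2 change above 0, beside 54.0% of all identifiers tested. The standard errors were wider than usual, with a median of 0.32 for the members and 0.18 for all identifiers tested.

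For GeneID:107831913 the log2 change in *ATG2*-silenced pollen against WT was 0.96 (limma, standard error 0.37, adjusted p = 0.2315). This value depended on each WT library, being 0.61 without WT replicate 3 and 0.80 without WT replicate 2. Without WT replicate 1 the log2 change was 1.46 and limma called the gene higher (adjusted p = 0.0026, in a range of 0.0026 to 0.487 over 19 alternative settings). Transcript 16213 had the largest change, 1.29 (limma, standard error 0.62, adjusted p = 0.329), which was 0.56 without WT replicate 1. It was called higher only without WT replicate 3, with a log2 change of 2.04 (limma, adjusted p = 0.0332, in a range of 0.0332 to 0.624). Each of these members therefore passed or missed the threshold through 1 WT library. GeneID:107772474 had the lowest log2 change, -1.04 (limma, standard error 0.23, adjusted p = 0.0707), and passed in none of the 19 settings (0.0547 to 0.236). The log2 change of transcript 6018 was 0.76 (limma, standard error 0.18, adjusted p = 0.0862). In the limma fit to FPKM as deposited plus 0.5, its adjusted p was under 0.05 (0.0451, in a range of 0.0451 to 0.262). Its log2 change in that fit was 0.88, short of the 2-fold limit. Without the added 0.5, its mean FPKM as deposited was 3.7 in *ATG2*-silenced and 1.78 in WT pollen.

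Transcripts 15561 and 2441 had log2 changes of 1.06 (standard error 0.59) and 1.00 (standard error 0.40), and adjusted p-values in limma of 0.409 and 0.2355. On the side of lower values, transcripts 26342 and 5895 had log2 changes of -0.999 (limma, standard error 0.53, adjusted p = 0.375) and -0.97 (standard error 0.63, adjusted p = 0.490). For these 4 transcripts, the standard errors were 0.40 to 0.63, each above that of GeneID:107777622, whose log2 change was -0.36 (limma, standard error 0.13, adjusted p = 0.1905). A p that missed the threshold does not show that a member was equal in both genotypes.

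**Figure D4:**
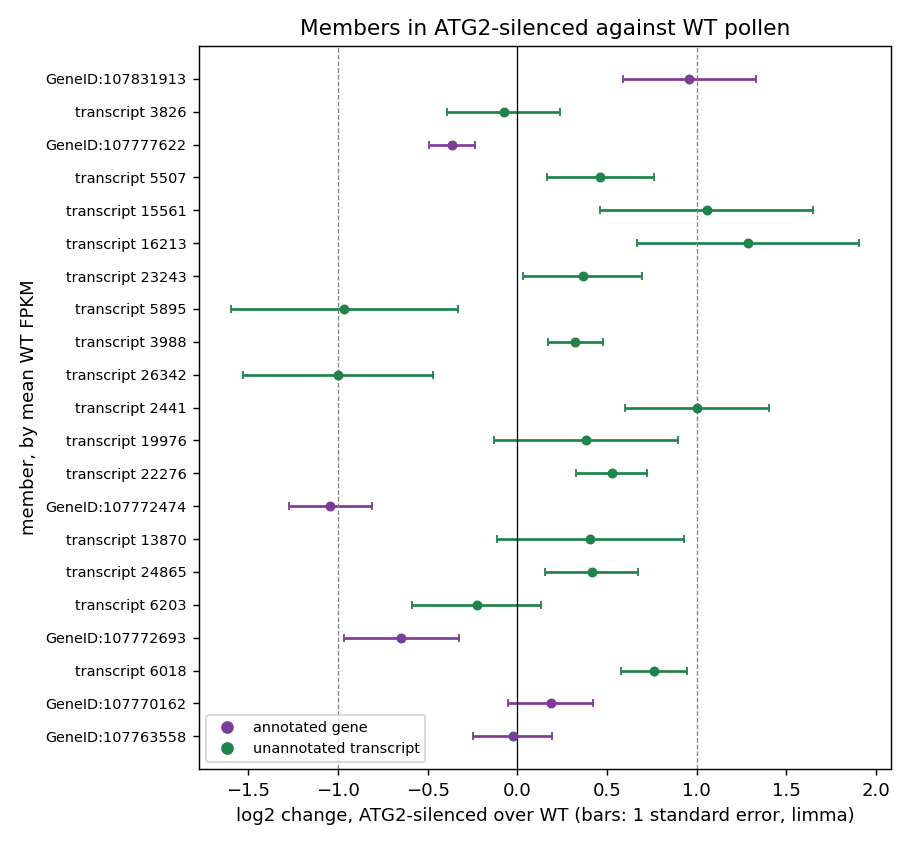
Log2 change of each member in *ATG2*-silenced over WT pollen with 1 standard error from limma, in the order of mean WT FPKM, with purple for annotated genes and green for unannotated transcripts. The points run from -1.04 to 1.29, the dashed lines mark the 2-fold change, and no member was called.

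In the comparisons that chose them, all 21 members were called lower in *ATG5*-silenced pollen by the same limma fit, against WT (7.75% of all identifiers tested) and against *ATG2*-silenced pollen (9.66%). Nothing is read from these counts, because the choice fixed them, and no fold is given against values listed at 0. Both comparisons share the *ATG5*-silenced libraries.

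The annotation at hand gave little on what the 6 annotated members encode. The reference table of a tobacco genome from another cultivar, K326 (ASM71507v2), held 2 of the 6, GeneID:107770162 and GeneID:107763558, and a name for 0 of them. In this assembly's order of genes, the 3 nearest measured genes on either side of these 2 included no other member. The 3 genes before GeneID:107770162 were at 0 in all 9 libraries. The gene after it, GeneID:107770161, stood at 0.58, 0.51 and 1.18 FPKM in *ATG5*-silenced pollen, 0.2, 0.2 and 0.2 FPKM in *ATG2*-silenced pollen and 0.35, 0.37 and 0.5 FPKM in WT, so it was measured where its neighbour was listed at 0. The gene before GeneID:107763558, GeneID:107763556, stood at 2.59, 1.77 and 2.06 FPKM in *ATG5*-silenced pollen, 3.3, 3.0 and 4.4 FPKM in *ATG2*-silenced pollen and 4.83, 4.07 and 3.1 FPKM in WT. The gene after it, GeneID:107806347, stood at 0.77, 1.2 and 0.95 FPKM in *ATG5*-silenced pollen, 1.4, 1.4 and 1.4 FPKM in *ATG2*-silenced pollen and 0.93, 1.22 and 1.0 FPKM in WT. The next, GeneID:107807944, was higher in each *ATG5*-silenced library, with 21.95, 22.34 and 29.55 FPKM against 8.5, 8.8 and 6.9 FPKM in *ATG2*-silenced and 6.42, 8.60 and 7.7 FPKM in WT pollen. Other neighbours were low in *ATG5*-silenced pollen. GeneID:107763494, the third gene after GeneID:107770162, stood at 0, 0 and 0.08 FPKM in *ATG5*-silenced pollen, 0.4, 0.4 and 0.1 FPKM in *ATG2*-silenced pollen and 0.29, 0.1 and 0.3 FPKM in WT. The second after it, GeneID:107823723, stood at 0.78, 1.76 and 0.85 FPKM in *ATG5*-silenced pollen, 2.6, 2.3 and 2.0 FPKM in *ATG2*-silenced pollen and 1.70, 2.56 and 1.2 FPKM in WT, where *ATG5*-silenced and WT libraries overlapped. The other 3 neighbours of GeneID:107763558 stayed at or below 0.6 FPKM in every library. Gene order in the plants studied may differ from this assembly.

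The lists of autophagy machinery and RNA silencing genes hold none of the 21. Genes were matched to these lists by symbol and no member has a name, so this absence was fixed in advance. Of 12 tested genes of the autophagy machinery, limma with an adjusted p under 0.05 put 1 above and 4 below WT in *ATG5*-silenced pollen. The silenced gene *ATG5* itself was among the 4. Of all identifiers tested, 27.1% were above and 24.9% below. In *ATG2*-silenced pollen 0 of the 12 were above and 1, *ATG2* itself, was below WT, beside 0.672% and 0.410%. Of 4 tested genes of RNA silencing, 0 were above and 1 was below WT in *ATG5*-silenced pollen, beside the same 27.1% and 24.9%. In *ATG2*-silenced pollen 0 of the 4 were above and 0 below WT, beside 0.672% and 0.410%. Nothing particular to RNA silencing genes is read from these counts. Each gene of these lists had a value above 0 in at least 1 *ATG5*-silenced library. As deposited, the sums of the 19 autophagy genes were 14.12 to 15.17 FPKM in *ATG5*-silenced, 23.8 to 27.8 FPKM in *ATG2*-silenced and 23.3 to 24.5 FPKM in WT pollen. Unlike the limma counts, these sums were not divided by the scaling factors, which were 0.751 to 0.791 in *ATG5*-silenced and 0.978 to 1.04 in WT libraries.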

How the data were processed

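The authors trimmed reads with SOAPnuke, mapped them to Ntab-TN90 with HISAT2 and Bowtie 2 and quantified them with RSEM, in versions not given in the sources used here. The deposited values are FPKM, 1 table per library, with 1 decimal in the 3 *ATG2*-silenced libraries and WT replicate 3 and 2 decimals in the others. Weak values are therefore coarse, and 1 line without a value per table was dropped. The members, gene lists and named genes were chosen with earlier results of these data known. Named are the annotated members and the 10 most abundant unannotated ones, those nearest the thresholds, and *ATG2* and *ATG5*. Other transcripts were named after their values were seen.

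From the deposited FPKM, log2 values were computed after division by median-of-ratios factors (0.751 to 0.791 in *ATG5*-silenced, 1.06 to 1.11 in *ATG2*-silenced and 0.978 to 1.04 in WT libraries) and addition of 0.5, which shrinks the changes of weak transcripts. A minimum of 0.5 FPKM in 3 or more libraries was set, and the identifiers that met it were fitted with limma 3.58.1 in R 4.3.3 (trend and robust eBayes, 9 libraries, two-sided, Benjamini-Hochberg over 27836 identifiers). The DESeq2 test of the study needs counts and was not repeated. Other pseudocounts, scalings, filters and thresholds, values rounded to 1 decimal, a replicate block and fits without single libraries were tried. The procedure was tested on simulated, normally distributed log2 values. Changes were set there only in identifiers with higher WT levels, so the detection of changes in weak members was not tested. Figures were drawn with matplotlib 3.10.9. Names came from a table that matched 53952 of 69099 annotated identifiers and named 1081. No sequences were printed, as none were at hand for the members.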

Additional observations from a re-analysis of the deposited data

How the results depend on the processing

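The number of members was 41 with a limit of 0.2 FPKM in *ATG5*-silenced pollen and 35 with at least 0.5 FPKM elsewhere, against 21, and 17 to 30 under the other settings of thresholds, scaling and decimals. Leaving out 1 library at a time gave 22 to 50, the numbers without *ATG5*-silenced replicates 1, 2 and 3 being 36, 44 and 50. Members called higher in *ATG2*-silenced pollen numbered 0 to 1 when 1 library was left out, 1 without WT replicate 1 and 1 without WT replicate 3, and limma called none lower in any setting. In the fit with the replicate number as a block, 0 members were called higher and 0 lower, and 108 and 36 of all identifiers. Libraries of the same number did not deviate together (correlations of -0.0436 to 0.0528). With 3 libraries per genotype, these correlations cannot show whether libraries of the same number were collected or prepared together. The paper states no pairing, so it remains unknown.

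Over all identifiers, *ATG2*-silenced against WT gave 134 higher and 44 lower, 210 higher with FPKM as deposited, and 27 to 268 higher and 12 to 54 lower with 1 library left out. *ATG5*-silenced against WT gave 4058 higher and 2156 lower, 3973 lower with FPKM as deposited and 3616 with equal totals. *ATG5*-silenced against *ATG2*-silenced gave 3993 higher and 2690 lower, with FPKM as deposited 2465 and 5749, and with equal totals 4872 lower. Scaling thus sets the balance of directions, and as deposited it puts the median log2 change of all identifiers in *ATG2*-silenced pollen at 0.13 against 0.03.

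Of 21 members, 15 kept the sign of their change in *ATG2*-silenced pollen in all 19 settings. Transcript 3826 turned to 0.055 as deposited and 0.002 with equal totals, and ran from -0.39 to 0.21 with 1 library left out. GeneID:107763558 turned to 0.066 and 0.027, and ran from -0.20 to 0.20. With 1 library left out, transcript 19976 ran from -0.077 to 1.07, 13870 from -0.32 to 0.79, 6203 from -0.59 to 0.087 and GeneID:107770162 from -0.043 to 0.36. The cause was not tested. The absence of counts limits all values near 0.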
